A study of Mus musculus with 8 samples.

Results

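The 10 genes described here encode cytosolic and mitochondrial heat shock chaperones: Hsph1, Hsp90aa1, Hsp90ab1, Hspa8, Hspa4, Hspa9, Hspd1, Hspe1, Dnaja1 and Dnajb1. They were picked by name from a table of exon-exon junctions, through the Ensembl gene identifier that each junction carries, and are 10 of the 13378 genes in it. All 10 had junctions in the table and passed the filter on low values.

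RNA was sequenced from FT1CL, a mouse acute myeloid leukemia line, in 8 libraries. The 4 Cop1_KO libraries are Cop1 ko/ko cells treated with 4-hydroxytamoxifen, which switches on the Cre recombinase the line carries. The 4 Cop1_WT libraries are untreated cells that the labels give as Cop1 +/+. All 8 share the rest of the line's history: marrow taken, after 5-fluorouracil, from Cop1 cKO/Rosa26-Cre-ERT2 mice (age 8 weeks), a pMYs retrovirus carrying Trib1, and culture in medium with fetal bovine serum and interleukin-3. The Cre is not tied to a cell type. Whether the line is a single clone, and whether the libraries are separate cultures, is not given in the sources used here. The p-values therefore speak only to the spread among these 8 libraries, and part or all of that spread may be technical. Drug treatment and loss of Cop1 came together in every Cop1_KO library and cannot be told apart.

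Heat shock chaperones bind unfolded stretches of proteins and help them fold, refold or reach a degradation route. In the cytosol, HSP70 (Hspa8) takes up clients brought by J-proteins (Dnaja1, Dnajb1), releases them with nucleotide exchange factors of the HSP110 kind (Hsph1, Hspa4), and hands some of them to HSP90 (Hsp90aa1, Hsp90ab1). In the mitochondrial matrix, mtHSP70 (Hspa9) pulls proteins in, and the HSP60 chamber (Hspd1) with its HSP10 lid (Hspe1) folds them. The transcription factor HSF1 drives many of these genes through repeats of the unit GAA and its reverse TTC, and many tumour cells, leukemia cells among them, are known to hold high levels of these proteins without heat stress.

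Promoter windows of 3 of the genes are shown because Hspe1 and Hsph1 were among the most lowered chaperone genes below, and Dnaja1 was the least changed. Each window runs from 250 bases before to 50 bases after an annotated RefSeq start on build GRCm38.p6, 5′ to 3′ on the gene's strand. Capitals mark each match to GAANNTTC or TTCNNGAA, 2 facing units of the HSF1 motif. Both patterns equal their own reverse complement, so both strands are searched at once, and matches may overlap.
Hspe1, chr1:55087898-55088197, plus strand: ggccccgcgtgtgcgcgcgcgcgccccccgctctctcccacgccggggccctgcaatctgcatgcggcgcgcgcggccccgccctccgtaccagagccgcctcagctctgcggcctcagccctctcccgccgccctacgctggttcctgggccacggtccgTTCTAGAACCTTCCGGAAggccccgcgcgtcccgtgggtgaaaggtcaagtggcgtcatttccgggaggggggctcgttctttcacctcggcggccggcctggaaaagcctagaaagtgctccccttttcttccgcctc
Hsph1, chr5:149636266-149636565, minus strand: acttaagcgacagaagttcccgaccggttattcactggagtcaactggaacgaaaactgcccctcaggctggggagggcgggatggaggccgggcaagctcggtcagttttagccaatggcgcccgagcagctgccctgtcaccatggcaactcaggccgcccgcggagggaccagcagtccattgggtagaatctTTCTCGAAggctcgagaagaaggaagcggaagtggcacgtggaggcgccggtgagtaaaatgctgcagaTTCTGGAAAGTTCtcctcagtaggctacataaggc
Dnaja1, chr4:40722218-40722517, plus strand: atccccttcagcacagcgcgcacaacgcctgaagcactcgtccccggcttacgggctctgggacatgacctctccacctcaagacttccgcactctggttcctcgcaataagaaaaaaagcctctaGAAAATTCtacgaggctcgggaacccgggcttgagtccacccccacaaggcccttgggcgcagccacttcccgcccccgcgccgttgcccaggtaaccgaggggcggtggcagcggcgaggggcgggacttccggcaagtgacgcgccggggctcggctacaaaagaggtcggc
In the Hspe1 window, 3 matches overlap in 1 run and begin at -89, -84 and -79 from the start. Hspd1 and Hspe1 lie head to head on chromosome 1, and an Hspd1 window (55087883 to 55088182) shares 285 bases with the Hspe1 window and holds the same run on its own strand. The Hsph1 window has a match at -54 and an overlapping pair beyond the start, at 15 and 20. The Dnaja1 window shown has a single match at -124, and the other 2 windows of this gene have none. The second Hspd1 window has no match, and neither do the windows searched for Hspa4 and Dnajb1. Of all 32851 RefSeq windows, 15.1% held a match, and 0.603% held a run of 3 units, GAA and TTC by turns with any 2 bases between them. The longer pattern was in 4 of the 11 windows searched for 6 of the chaperone genes, those of Hspd1, Hspe1 and Hsph1. These 4 windows are not separate sites. The Hsph1 windows overlap and hold the same match, and the Hspd1 and Hspe1 windows hold the same run. A match describes letters, not a bound site. The windows shown were picked by the results of their genes, and a link between matches and fold changes was not tested. Hspa4, with no match in its window, was also called lower below. No window of Hsp90aa1, Hsp90ab1, Hspa8 or Hspa9 was among those searched for the chaperone genes, so whether they hold a match is not given here.

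Values are junction reads per 1000000 junction reads of the library (RPM), summed over a gene's junctions, and libraries held 17333302 to 22469109 junction reads in Cop1_KO and 17811247 to 20981993 in Cop1_WT. Cop1 itself averaged 73.7 ± 6.47 RPM in Cop1_KO and 162 ± 2.92 RPM in Cop1_WT (SD, n = 4 each), which is -1.13 on the log2 scale (SE 0.08, limma adjusted p = 4.91e-04). Cop1_KO library 4 stood apart from the other Cop1_KO libraries: its first principal component score was 1.51, against -49.4 to -40.6 for the others and 18.8 to 57.0 for Cop1_WT. On the second component both libraries numbered 4 were lowest, Cop1_KO at -48.8 and Cop1_WT at -24.4, against -2.28 to 26.6 for the rest. For the marker lists that follow, 8.49% of all genes tested were called higher in Cop1_KO and 12.1% lower. All 12 myeloid leukemia marker genes were detected, and 6 of 12 were called higher in Cop1_KO. Their sums were 3994 to 7771 RPM in Cop1_KO and 1633 to 3384 RPM in Cop1_WT. Neutrophil granule genes summed to 628 to 10993 RPM in Cop1_KO, lowest in library 4, and to 128 to 467 RPM in Cop1_WT, with 5 of 12 tested higher in Cop1_KO. Genes of DNA replication were lower in Cop1_KO for 12 of 20, with sums of 2686 to 3272 RPM in Cop1_KO and 4389 to 4827 RPM in Cop1_WT. T and B lymphocyte genes stayed between 1.87 and 8.39 RPM in Cop1_KO and between 2.25 and 9.53 RPM in Cop1_WT, with 4 of 11 listed genes present and none called. Hba-a1 and Hba-a2 were called lower among 7 tested erythroid and platelet genes. The 11 listed genes present in the table summed to 411 to 1230.5 RPM in Cop1_KO and 856 to 1303 RPM in Cop1_WT. Fibroblast, epithelial and endothelial genes summed to 298 to 947 RPM in Cop1_KO and 192 to 331 RPM in Cop1_WT, mostly Cdh1 and Pecam1, with Col1a1 near 0 and 0 of 3 tested called. The part of these shifts in the chaperone results was not tested, and in bulk RNA a change in the make-up of the cells and a change of RNA per cell cannot be told apart.

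All 10 chaperone genes averaged lower in Cop1_KO, and 3 of them passed the test: Hsph1, Hspd1 and Hspa4, at 62.3%, 66.4% and 77.1% of the Cop1_WT mean. None was called higher. Over all 11003 genes tested, 12.1% were called lower and 8.49% higher (limma, adjusted p under 0.05), and 56.6% had a negative log2 fold change. The median log2 fold change was -0.28 over the chaperone genes and -0.07 over all genes. With TMM scaling, which sets the typical gene near no change, the same 3 chaperone genes were called (9.24% of all genes lower) and the median of the 10 was -0.21, while the calls over all genes split into 1017 lower and 1087 higher, against 1330 lower and 934 higher as scaled by library totals.

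Some junctions of these genes held almost no reads in some libraries and very many in others, which widens the spread of a summed gene. A value was set down as far below its gene when it had at most 6 reads but 100 or more were predicted from the rest of the gene. This met 86 values of the chaperone genes, 37 in Cop1_KO and 49 in Cop1_WT, at 24 of their 115 junctions. Hspa8 was touched most, at 6 of its 9 junctions. Its junction E4.7-E4.9 had 5423, 4838, 1 and 8395 reads in Cop1_KO libraries 1 to 4, against 6782, 6157, 7111 and 1 in Cop1_WT libraries 1 to 4. Dnaja1 and Dnajb1 had no such junction, but a junction with at most 6 reads in every library cannot meet the rule. Only 2 of the 13 junctions of Dnaja1 averaged at least 100 reads. These 2 averaged 34.7 RPM each in Cop1_KO, where all 13 summed to 74.9 RPM. A junction that cells truly use only in some libraries would also meet this description, and the cause was not tested.

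**Figure D1:**
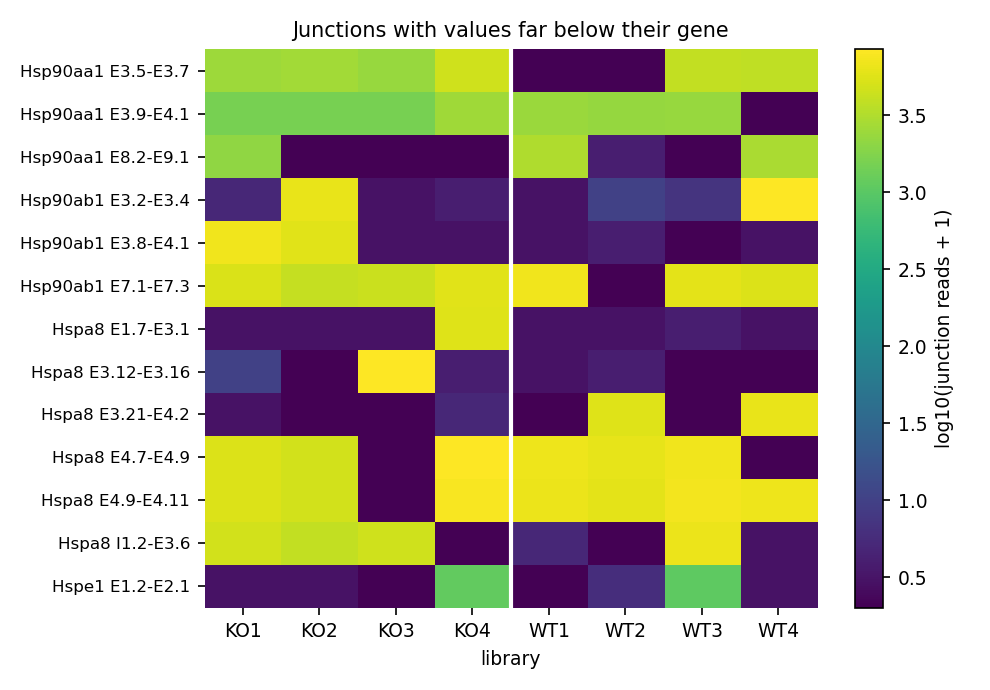
Junction reads (colour, log10 of reads + 1) in each library (columns, Cop1_KO left, Cop1_WT right) for the junctions of 4 chaperone genes that held a value far below their gene; row names give the gene and the joined exon or intron blocks. Dark cells sit beside bright cells in the same row, in both groups, and Hspa8 fills 6 rows.

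With those junctions left out, 6 of the 10 chaperone genes were called lower in Cop1_KO: Hsph1, Hspd1, Hspe1, Hsp90aa1, Hsp90ab1 and Hspa4. Leaving them out raised the share of lower calls over all genes to 16.9%. The median log2 fold change of the chaperone genes was then -0.40. Every Cop1_KO library lay below every Cop1_WT library for 6 of 10 genes (18.5% of all genes), against 2 of 10 with all junctions (15.4% of all genes). With the replicate block as well, 7 of 10 were called, Hspa8 being the seventh, against 22.6% of all genes lower.

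**Figure D2:**
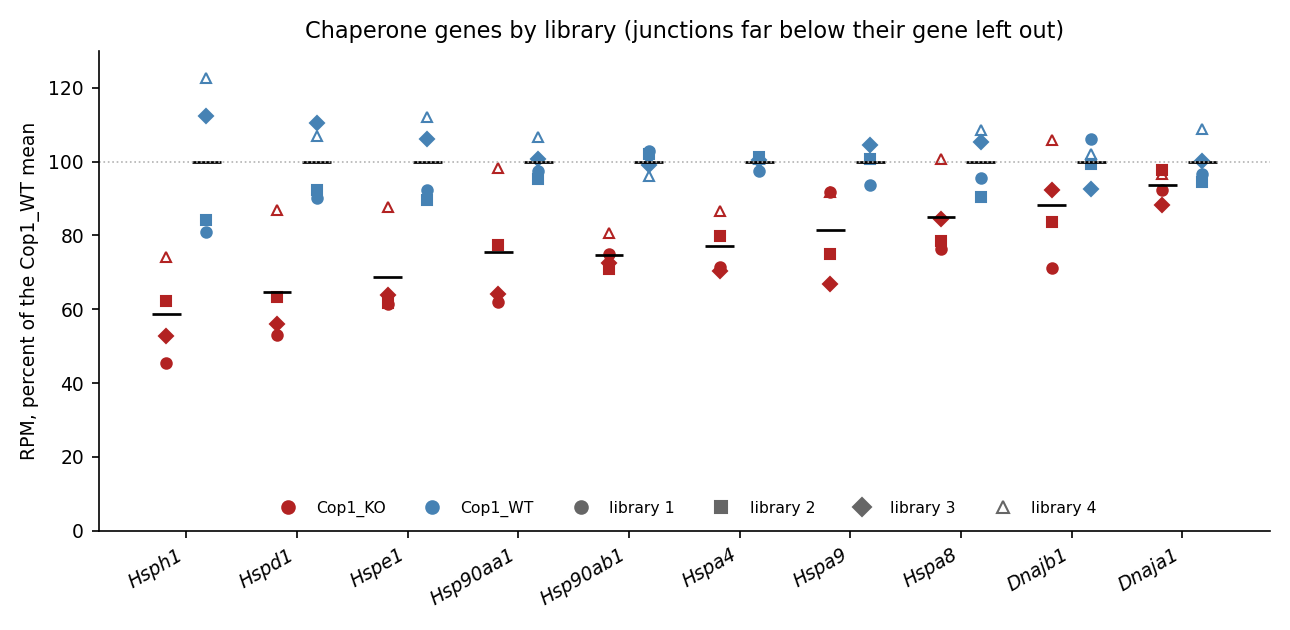
RPM of each chaperone gene in each library as percent of its Cop1_WT mean (y axis), without the junctions that held values far below their gene; red is Cop1_KO, blue is Cop1_WT, shapes give the library number, open triangles are the libraries numbered 4, and black bars are group means. Cop1_KO means run from 58.6% for Hsph1 to 93.7% for Dnaja1, and Cop1_KO library 4 is the highest Cop1_KO library for 9 of the 10 genes.

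The HSP110 genes Hsph1 and Hspa4, exchange factors that reset HSP70, were both lower. Hsph1 (chromosome 5, 149614287 to 149636376 of mm10) gave 79.4, 106, 91.0 and 122 RPM in Cop1_KO libraries 1 to 4, against 140, 145, 173 and 182 RPM in Cop1_WT libraries 1 to 4. The groups did not overlap, and the highest Cop1_KO library was library 4. The log2 fold change was -0.69 (SE 0.15, limma adjusted p = 0.016) and -0.76 without the far-below junctions (adjusted p = 0.0168). Its call ended when its most-read junction stood alone (log2 fold change -0.53, adjusted p = 0.0695), and when Cop1_KO library 3 was left out along with the far-below junctions (adjusted p = 0.0516). Hspa4 (chromosome 11, 53259814 to 53300457) gave 495, 518, 457 and 560.2 RPM in Cop1_KO, against 632, 656, 692 and 652 RPM in Cop1_WT. It had the tightest groups of the called genes and fell by 0.38 on the log2 scale (SE 0.08, adjusted p = 0.0136). Its call held in all 35 alternatives run.

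The HSP70 that both act on was not called. Hspa8 (chromosome 9, 40800984 to 40810087), the constitutive cytosolic HSP70, gave 1277, 1308, 1244 and 1649 RPM in Cop1_KO, against 1278, 1549, 1812 and 1472 RPM in Cop1_WT. The groups overlapped widely, and the log2 fold change was -0.16 (SE 0.13, adjusted p = 0.43). Without the far-below junctions it gave 508, 523, 563 and 669.6 RPM in Cop1_KO and 636, 603, 701 and 723 RPM in Cop1_WT, from its remaining 3 junctions. Library 4 of Cop1_KO then lay inside the Cop1_WT range, and the log2 fold change of -0.24 was not called (adjusted p = 0.111). Over all junctions, the ratio of Hsph1 to Hspa8 ran from 0.0622 to 0.081 in Cop1_KO and from 0.0934 to 0.124 in Cop1_WT. That difference of -0.54 in log2 ratio gave p = 0.0286 in a two-sided exact permutation test, the smallest that 4 against 4 libraries allow. Adjustment over the 6 ratios of partner genes compared gave 0.171, so 1 ratio alone at that smallest p could not pass.

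Neither J-protein gene was called; J-proteins bring clients to HSP70 and spur its ATPase. Dnaja1 (chromosome 4, 40722150 to 40737149) gave 73.8, 78.1, 70.5 and 77.3 RPM in Cop1_KO, against 77.3, 75.5, 80.0 and 87.1 RPM in Cop1_WT. Dnajb1 (chromosome 8, 83608193 to 83612653), which heat strongly induces, gave 22.6, 26.5, 29.2 and 33.5 RPM in Cop1_KO, against 33.6, 31.4, 29.3 and 32.3 RPM in Cop1_WT. The groups of both genes overlapped. Their log2 fold changes were -0.09 (SE 0.08, adjusted p = 0.462) and -0.19 (SE 0.13, adjusted p = 0.357). Neither was called in any of the 35 alternatives.

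The HSP90 pair showed similar falls once the far-below junctions were left out, and no call with them. Hsp90ab1 (chromosome 17, 45567775 to 45573271), the constitutive form, gave 2165, 2423, 1741 and 1943 RPM in Cop1_KO over all junctions, against 2489, 2130.3, 2387 and 2789 RPM in Cop1_WT. Those groups overlapped (log2 fold change -0.25, SE 0.12, adjusted p = 0.178). Without 3 of its 11 junctions it gave 1566, 1478, 1515 and 1682 RPM in Cop1_KO, against 2149, 2129.6, 2067 and 2008 RPM in Cop1_WT. The gap between the groups was then wider than the range within either, and the log2 fold change was -0.42 (SE 0.06, adjusted p = 0.00225). Hsp90aa1 (chromosome 12, 110690605 to 110702728), the inducible form, gave 480.1, 599.9, 497 and 761 RPM in Cop1_KO without such junctions, against 754, 738, 779 and 826 RPM in Cop1_WT. Cop1_KO library 4 reached the Cop1_WT range. The log2 fold change was -0.43 (SE 0.14, adjusted p = 0.0484), against -0.31 (adjusted p = 0.191, and 0.0408 without Cop1_KO library 4) over all junctions. This call ended under TMM scaling (adjusted p = 0.0695) and when any library other than Cop1_KO 4 was left out (adjusted p = 0.0849 to 0.126). Without the far-below junctions, the ratio of Hsp90aa1 to Hsp90ab1 was 0.307 to 0.453 in Cop1_KO and 0.347 to 0.411 in Cop1_WT (exact permutation p = 0.971, adjusted 0.971).

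**Figure D3:**
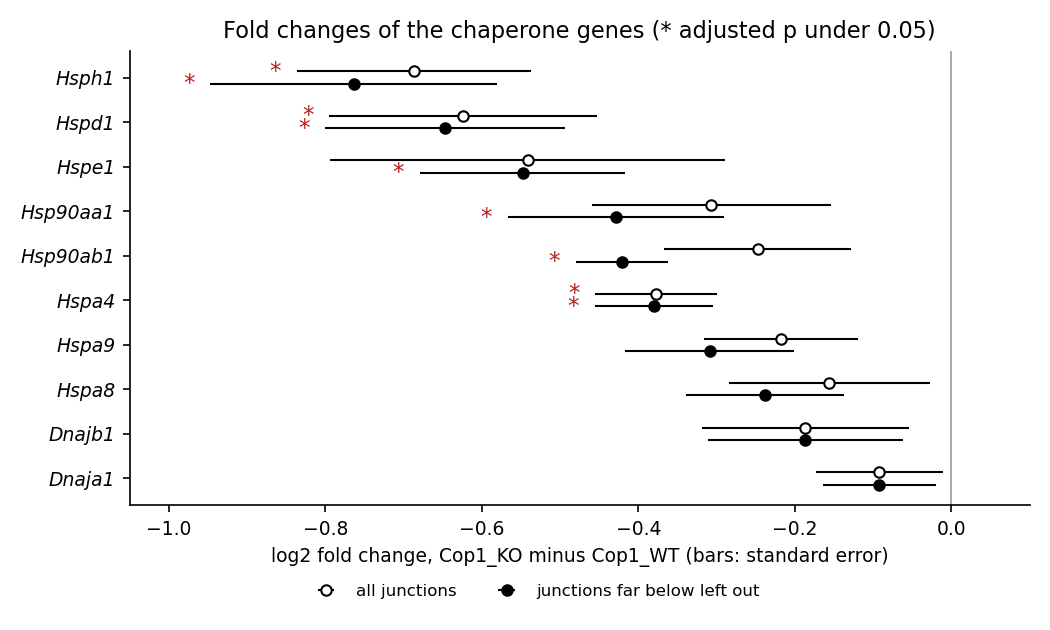
log2 fold change of each chaperone gene, Cop1_KO minus Cop1_WT (x axis), with its standard error as bars, over all junctions (open) and without the far-below junctions (filled); a red asterisk marks an adjusted p under 0.05. All points lie left of 0, with 3 asterisks for all junctions and 6 for the filled points.

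In mitochondria, the HSP60 chamber and its HSP10 lid fell together when the far-below junctions were left out. Hspd1 (chromosome 1, 55077835 to 55088243) gave 381, 351, 401 and 622 RPM in Cop1_KO over all junctions, against 647, 595, 712 and 689.8 RPM in Cop1_WT. Libraries 1 to 3 of Cop1_KO were far under Cop1_WT, while library 4 lay among them. The log2 fold change was -0.62 (SE 0.17, adjusted p = 0.0355). Leaving out any 1 library other than Cop1_KO 4 ended this call (adjusted p = 0.0623 to 0.0921). Without the far-below junctions Hspd1 gave 295, 351, 311 and 483 RPM in Cop1_KO, against 501, 513, 614 and 595 RPM in Cop1_WT, with no overlap and a difference of -0.65 on the log2 scale (SE 0.15, adjusted p = 0.0157). That call held with each library left out (highest adjusted p = 0.0496).

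Hspe1 (chromosome 1, 55088132 to 55091307) has only 3 junctions, and 1 of them, E1.2-E2.1, was read in Cop1_KO library 4 (1128 reads) and Cop1_WT library 3 (1073 reads) and in no other library beyond 5 reads. Over all junctions it gave 89.0, 89.2, 92.4 and 177 RPM in Cop1_KO, against 134, 129.7, 210.0 and 162 RPM in Cop1_WT (log2 fold change -0.54, SE 0.25, adjusted p = 0.163, and 0.0131 without Cop1_KO library 4). With that junction left out it gave 88.9, 89.1, 92.3 and 127 RPM in Cop1_KO, against 133.5, 129, 153 and 162 RPM in Cop1_WT. Cop1_KO library 4 came just under the lowest Cop1_WT library, and the log2 fold change was -0.55 (SE 0.13, adjusted p = 0.0163). The annotated Hspd1 and Hspe1 genes share 112 bases at their starts, on opposite strands. The ratio of Hspd1 to Hspe1, without such junctions, stayed within 3.32 to 3.94 in Cop1_KO and 3.67 to 4.01 in Cop1_WT (difference -0.10 in log2 ratio, exact permutation p = 0.257, adjusted 0.386).

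The mitochondrial HSP70, Hspa9 (chromosome 18, 34937414 to 34954357), gave 708, 664, 576 and 755 RPM in Cop1_KO, against 772, 778, 863 and 723 RPM in Cop1_WT. The groups overlapped by 1 library each, and the log2 fold change was -0.22 (SE 0.10, adjusted p = 0.151). Without 4 junctions the groups parted narrowly, 656 RPM in the highest Cop1_KO library and 669 RPM in the lowest Cop1_WT library, with a difference of -0.31 on the log2 scale (SE 0.11, adjusted p = 0.0637). Over all junctions, Hspd1 over Hspa9 was 0.529 to 0.824 in Cop1_KO and 0.765 to 0.954 in Cop1_WT. This difference of -0.41 in log2 ratio did not pass (exact permutation p = 0.0571, adjusted 0.171).

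Junctions were next compared singly, leaving out the 24 set aside above for not following their gene. Of the 115 junctions, 67 were well read, with at least 100 reads on average and no far-below value, and all 67 had a lower mean in Cop1_KO, against 63.0% of 36305 well-read junctions of all genes. In 42 of the 67 every Cop1_KO library was below every Cop1_WT library (22.3% of all well-read junctions). Junctions of 1 gene share its reads, so these counts do not add independent evidence. Hspa4 gave all 16 of its 16 junctions without overlap, and its log2 ratios stayed between -0.45 and -0.32. Hsph1 varied most, from -1.07 to -0.58 over 13 junctions, each with at most 18.5 RPM. A test for junctions that move apart from their gene (limma diffSplice) called 10 of 35307 junctions (0.0283%) and none of the 67, in the reported fit and in each alternative. An unadjusted p under 0.05 was reached by 0 of the 67, and the lowest was 0.271 (diffSplice). Spread between libraries that all junctions of a gene share counts as noise in this test. The lack of calls therefore cannot show that the junctions follow their gene.

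**Figure D4:**
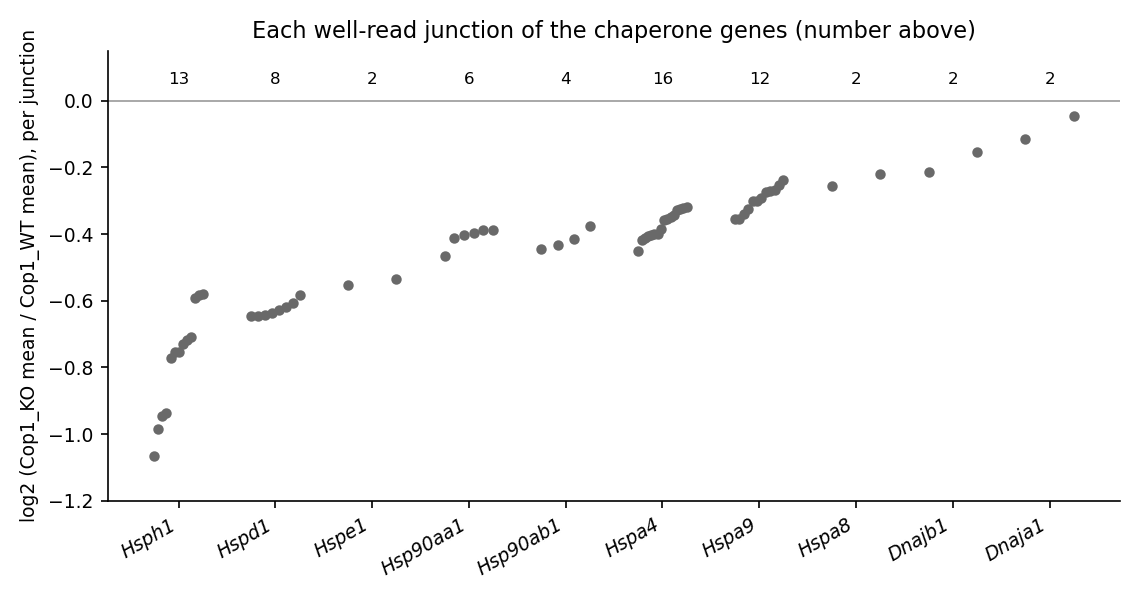
log2 of the Cop1_KO mean over the Cop1_WT mean (y axis) for each well-read junction (points) of each chaperone gene, with the number of junctions above. All 67 points lie below 0, and the spread within a gene is widest for Hsph1 (-1.07 to -0.58).

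A junction read covers a span of fixed length, so mean RPM per well-read junction allows genes to be set beside each other. The order depends on which junctions are counted, and Dnaja1 has only 2 well-read junctions of its 13. On that scale Hsp90ab1 was highest, with 389.9 ± 22.2 RPM per junction in Cop1_KO and 522 ± 16.0 in Cop1_WT (SD, n = 4 each), followed by Hspa8 with 283 ± 36.3 in Cop1_KO and 333 ± 27.9 in Cop1_WT. Hsp90aa1 came next, with 97.3 ± 21.6 in Cop1_KO and 129 ± 6.38 in Cop1_WT. Hspe1, Hspd1 and Hspa9 lay close together, at 49.6, 44.7 and 48.5 in Cop1_KO and 72.3, 69.0 and 59.6 in Cop1_WT, and neighbours among them overlapped in both groups. Hspa4 (31.2 ± 3.08 in Cop1_KO, 40.5 ± 0.68 in Cop1_WT) and Dnaja1 (34.7 ± 2.09 in Cop1_KO, 36.8 ± 2.22 in Cop1_WT) also overlapped. Dnajb1 (14.0 in Cop1_KO, 15.8 in Cop1_WT) and Hsph1 (6.22 in Cop1_KO, 10.6 in Cop1_WT) were lowest. Averaged over every junction and all 8 libraries, Dnaja1 was lowest instead, at 5.96 RPM per junction, below Hsph1 at 7.21 and Dnajb1 at 14.9, and well below Hspa4 at 32.4.

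Likeness was measured as the root mean square difference of log2(RPM + 1) values, each centred over the 8 libraries, against 7860 genes with at least 10 RPM. Hsph1 was nearest to Idh3a, a subunit of mitochondrial isocitrate dehydrogenase (0.0269), and Hspa4 to Ltn1, a ubiquitin ligase of ribosome quality control (0.0334). Dnaja1 was nearest to Pfdn1, a prefoldin subunit (0.033), and Hsp90aa1 to Mtf2 (0.0731). Without the far-below junctions, among 7605 genes, Hspa4 was again nearest to Ltn1 (0.0353), while the other 3 had other neighbours: Hsph1 had Atic (0.0759), Dnaja1 had Cdc16 (0.0323), and Hsp90aa1 had Stip1, the adaptor that joins HSP70 to HSP90 (0.048). Among pairs of chaperone genes, the closest was Hspa4 with Hspa9 over all junctions (0.105), and Hspa4 with Hsp90ab1 without the far-below junctions (0.0833). Hspd1 and Hspe1 were each nearest to the other of the 10 on both sums (0.166 and 0.0986). These values include the difference between the groups.

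Among partners of HSP90, 10 of 23 tested cochaperone genes were called lower and none higher, with a median log2 fold change of -0.34, while 12.1% of all genes were called lower. Cacybp, an adaptor that links ubiquitin ligases to clients, averaged 94.8 ± 11.7 RPM in Cop1_KO and 148 ± 16.0 RPM in Cop1_WT (log2 fold change -0.64, SE 0.12, adjusted p = 0.00978). Ahsa1, which speeds the HSP90 ATPase, averaged 185 ± 20.6 RPM in Cop1_KO and 272 ± 28.3 RPM in Cop1_WT (log2 fold change -0.55, SE 0.11, adjusted p = 0.0122). Fkbp5, an immunophilin of steroid receptor complexes, averaged 130.1 ± 10.9 RPM in Cop1_KO and 184 ± 25.5 RPM in Cop1_WT (log2 fold change -0.49). Cdc37, which brings kinases to HSP90 and had the highest level per junction, averaged 383 ± 43.6 RPM in Cop1_KO and 474 ± 26.7 RPM in Cop1_WT (log2 fold change -0.31, adjusted p = 0.0459). Stip1, named here for its likeness to Hsp90aa1, averaged 321 ± 65.9 RPM in Cop1_KO and 444 ± 32.2 RPM in Cop1_WT (log2 fold change -0.49, adjusted p = 0.0395). TMM scaling cut the list to 5 lower (9.24% of all genes), ending the calls of Fkbp5, Cdc37, Stip1, Ptges3 and Chordc1. It also gave 2 higher calls (9.88% of all genes), Unc45a among them. Without the far-below junctions 13 were lower (16.9% of all genes) and 2 higher (10.7%), Unc45a again among them.

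Other cytosolic folding partners gave fewer calls, none of them higher over all junctions, while 12.1% of all genes were called lower. Of 30 J-protein and nucleotide exchange partners of HSP70, 3 were lower (median log2 fold change -0.20): the ribosome-bound Dnajc2 (-0.53, adjusted p = 0.00953), Dnaja2 (-0.31) and the histone chaperone Dnajc9 (-0.43). With the replicate block this count was 6 (15.7% of all genes lower), and without both libraries numbered 4 it was 9 (14.1%). Without the far-below junctions it was 6 (16.9%), with Dnajb14 called higher there and under TMM scaling. St13, the HSP70-interacting protein with the highest level per junction, averaged 420.4 ± 85.7 RPM in Cop1_KO and 549 ± 34.6 RPM in Cop1_WT and was not called over all junctions (log2 fold change -0.40, adjusted p = 0.0623, and 0.0456 without the far-below junctions). Of 17 subunits of the TRiC chaperonin and prefoldin, which fold actin and tubulin, 3 were lower (median -0.25): Cct2 (-0.29, adjusted p = 0.0189), Cct6a (-0.56) and Cct8 (-0.38). TMM scaling ended the call of Cct8, and without the far-below junctions 8 of 16 were lower (16.9% of all genes).

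Around the mitochondrial chaperones, 1 of 21 import and folding genes was lower, with a list median of -0.17, while 12.1% of all genes were called lower. It was Trap1, the HSP90 of mitochondria, which averaged 197 ± 14.2 RPM in Cop1_KO and 319 ± 12.5 RPM in Cop1_WT (log2 fold change -0.69, SE 0.08, adjusted p = 0.00187). Tomm20, an import receptor, averaged 216 ± 18.9 RPM in Cop1_KO and 232 ± 8.11 RPM in Cop1_WT and was not called. With the replicate block 2 of 21 were lower (15.7% of all genes). Without the far-below junctions 5 of 21 were lower (16.9% of all genes), with Timm44, Tomm34, Tomm40 and Timm50 added.

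Of the endoplasmic reticulum chaperones, 4 of 18 were higher and none lower, with a median log2 fold change of 0.39, while 8.49% of all genes were called higher. The disulfide isomerase Pdia4 averaged 727 ± 56.5 RPM in Cop1_KO and 392 ± 82.8 RPM in Cop1_WT (log2 fold change 0.91, SE 0.14, adjusted p = 0.00498). P4hb, another isomerase, averaged 2437 ± 169 RPM in Cop1_KO and 1713 ± 314 RPM in Cop1_WT (0.52, adjusted p = 0.0221). Dnajc1 (0.41) and Dnajb9 (0.43), J-proteins of that compartment, were the others. Calr, a lectin chaperone with the highest level per junction, averaged 2414 ± 402 RPM in Cop1_KO and 1799 ± 709 RPM in Cop1_WT and was not called (adjusted p = 0.242). With the replicate block 7 of 18 were higher (12.3% of all genes). Without both libraries numbered 4 the calls were Dnajc1 and Pdia4, 2 of 18 (11% of all genes higher). Without the far-below junctions 6 of 18 were higher (10.7% of all genes). Among these was the HSP70 of this compartment, Hspa5 (log2 fold change 0.48, adjusted p = 0.037, against 0.03 over all junctions). The difference between lists was not tested.

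Genes that heat or oxidative stress induces gave 3 higher calls and 1 lower, while 8.49% of all genes were called higher and 12.1% lower. Of 17 stress-inducible and small heat shock genes listed, 9 were tested, since 7 had no junction in the table, the inducible HSP70 genes Hspa1a and Hspa1b among them, and Cryab was under 1 RPM. Hmox1, the heme oxygenase, averaged 81.9 ± 22.0 RPM in Cop1_KO and 19.9 ± 6.45 RPM in Cop1_WT (log2 fold change 1.99, SE 0.28, adjusted p = 0.00388). Ubb, a polyubiquitin gene, averaged 951 ± 38.2 RPM in Cop1_KO and 723 ± 16.2 RPM in Cop1_WT (log2 fold change 0.39, SE 0.06, adjusted p = 0.00451). Chordc1, also an HSP90 cochaperone, was the 1 gene of this list called lower (-0.34), and not under TMM scaling. Of 11 heat shock factors and HSF1 regulators, Hsf2 alone was called, at 18.7 ± 2.02 RPM in Cop1_KO and 26.0 ± 3.60 RPM in Cop1_WT (log2 fold change -0.45, adjusted p = 0.0457), and TMM scaling ended that call (adjusted p = 0.0668). When the far-below junctions were left out, 3 of 11 were lower (16.9% of all genes), Hsf2, Tpr and Vcp. Without both libraries numbered 4, Tpr and Vcp were lower (14.1% of all genes) and Hif1a higher (11%). Hif1a was also higher with the replicate block (12.3%). Vcp, an unfoldase that acts with HSF1 regulators and had the highest level per junction, averaged 1049.8 ± 209 RPM in Cop1_KO and 1241 ± 136 RPM in Cop1_WT and was not called over all junctions (adjusted p = 0.235, and 0.0343 without the far-below junctions).

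**Figure D5:**
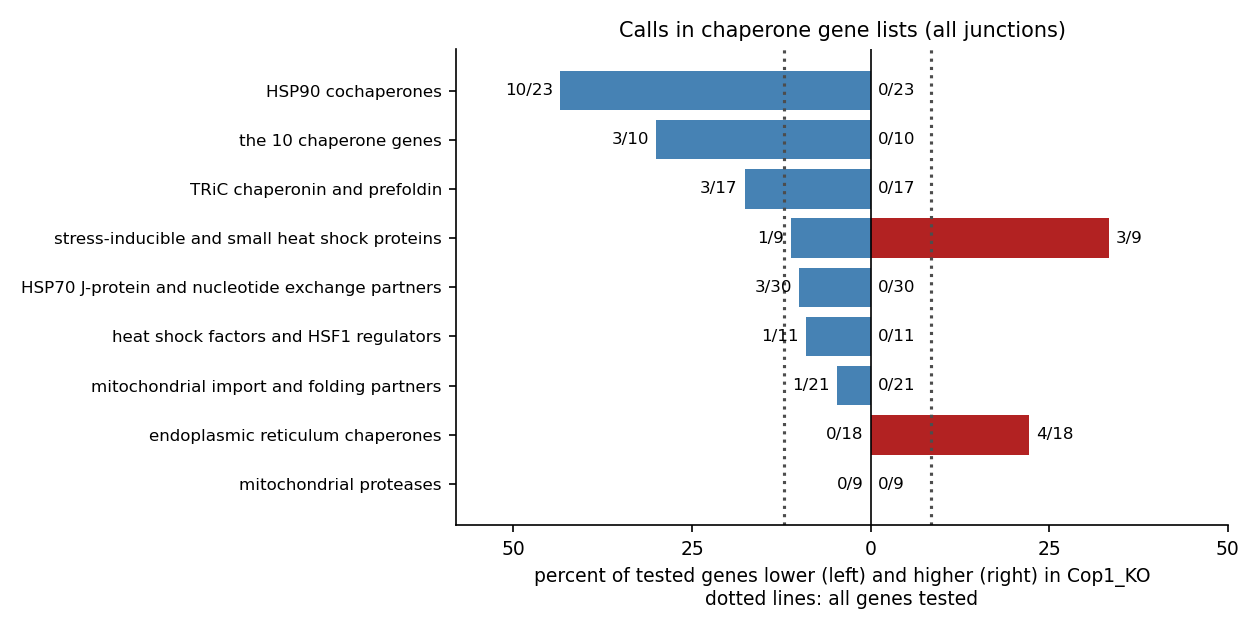
Percent of tested genes called lower (blue, left) and higher (red, right) in Cop1_KO, over all junctions, for the 10 chaperone genes and 8 related lists (rows), with counts beside the bars; dotted lines give the percent over all genes tested (12.1% lower, 8.49% higher). HSP90 cochaperones (10 of 23) and the 10 chaperone genes (3 of 10) lead the lower calls, and stress-inducible genes (3 of 9) and endoplasmic reticulum chaperones (4 of 18) the higher ones.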

How the data were processed

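RNA of 8 libraries (4 Cop1_KO, 4 Cop1_WT) was read from 1 deposited table of 134051 exon-exon junctions of 13378 genes. Trimmomatic 0.39, kallisto and build mm10 are named, per the submitters' processing notes. The junction aligner, its handling of reads that match several places, strand use and any filter are not given in the sources used, so values of genes with near-identical copies, such as Hspa8, Hsp90ab1, Hspd1 and Hspe1, are uncertain. The deposited unit is a signal per junction that the authors normalised, under AltAnalyze identifiers per the file headers. Each equals reads plus 1, scaled by the library's junction total and 60 nt. Solved for reads, this was whole for 100% of values above the floor, within 0.001 of a read. Symbols were found for 13247 genes.

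Reads were summed per gene, scaled to RPM and tested as log2(RPM + 1) with limma 3.58.1 (trend, robust) for genes averaging 1 RPM or more. Benjamini-Hochberg adjustment ran over 11003 genes, with a threshold of 0.05. Fold changes understate changes of genes near 1 RPM. Precision rests on the spread of 4 libraries a group.

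A junction value was far below its gene at 6 reads or fewer where at least 100 were predicted from the gene's other junctions in 2 passes, with a typical share of the gene of at least 0.1 of its highest. This held for 32560 values, 6.79% of those at 56315 junctions that reached 100 scaled reads, and touched 3262 genes. Sums without such junctions leave them out in every library, and the summed levels of gene lists are of this kind.

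Replicate numbers paired the libraries: deviations from group means correlated at 0.293 to 0.55 between libraries of the same number, and at most at 0.146 between different numbers. The reported fit has no block. The counts of reads recovered from Cop1_KO 2 and 4 did not pass an automatic check of step sizes, so edgeR 4.0.16 and DESeq2 1.42.0 were run on the other 6 libraries only. Junction use was tested with diffSplice on log2(RPM + 0.05), and ratios of partner genes by exact two-sided permutation. No pair of libraries was a duplicate. The limma and junction tests were tested on simulated data, with each gene and junction drawn independently. The simulation held no paired libraries, library apart from its group or far-below values, so it cannot show how the tests fare with these.

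The chaperone genes, the 17 gene lists and the tests were chosen with earlier results of these data known. Named list genes are up to 3 called genes with the smallest adjusted p and the 1 with the highest RPM per junction. Stip1, and genes named for a change of call between settings, were chosen after their values were seen. Some genes that the rule names are not reported here. Coordinates are from Gencode M21 (GRCm38, mm10) and promoter windows from RefSeq on GRCm38.p6. Python 3.11.15 and R 4.3.3 were used.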

Additional observations from a re-analysis of the deposited data

Results flagged for a closer look

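In 3 of the 40 groups of 4 libraries examined (10 genes, 2 groups, with and without the far-below junctions), 1 library lay far from the other 3, and chance gives about 1 in 20. All 3 were Cop1_KO library 4, and they share that library. Hspa8 over all junctions had 1649 RPM in Cop1_KO library 4 and 1244 to 1308 RPM in the other Cop1_KO libraries, against 1278 to 1812 RPM in Cop1_WT. Hspe1 over all junctions had 177.0 RPM in Cop1_KO library 4 and 89.0 to 92.4 RPM in the other Cop1_KO libraries, against 129.7 to 210.0 RPM in Cop1_WT. Without the far-below junction Hspe1 had 126.8 RPM in Cop1_KO library 4 and 88.9 to 92.3 RPM in the others, against 129 to 162 RPM in Cop1_WT.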

How the results depend on the processing

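All 10 chaperone genes kept a negative log2 fold change in the 35 alternatives, and none was called higher. With all junctions, 3 were lower (12.1% of all genes lower). The count was 3 with the replicate block (15.7% of all genes lower) and 3 under TMM scaling (9.24%). It ran from 2 to 5 with 1 library left out (6.44% to 15.9% of all genes lower), 5 being without Cop1_KO replicate 4 (15.9%). Without the far-below junctions it was 6 (16.9% of all genes lower), and with the block as well 7 (22.6%). Leaving out both libraries numbered 4 as well gave 8 (20.0% of all genes lower), and TMM as well gave 5 (13.2%). With 1 library left out as well it was 4 to 8 (11% to 21.5% of all genes lower), 8 being without Cop1_KO replicate 4 (21.5%). On the 6 libraries without Cop1_KO 2 and 4, limma, edgeR and DESeq2 gave 4, 3 and 4 with all junctions (10.8%, 6.77% and 12.7% of all genes lower), and each gave 6 without the far-below junctions (16.2%, 11% and 14.8%). Over all genes 2264 passed, 3084 with the replicate block, 4218 with the block and without far-below junctions, 3730 without those junctions and both libraries numbered 4, and 1215 to 2991 with 1 library left out, fewer than 2264 by over 1.5 times without Cop1_KO 1, 2 or 3 or Cop1_WT 1, 2 or 4 (1935 to 3891 without far-below junctions as well). On 6 libraries edgeR split its calls into 835 higher and 741 lower, and DESeq2 into 1433 and 1391. The cause of these changes was not tested. The block changed no call of a chaperone gene over all junctions, and an exact sign-flip test of 4 pairs of libraries, run for the ratios, cannot go below p = 0.125. No ratio passed adjustment in the settings run. With 4 against 4 libraries, 1 ratio alone at the smallest exact permutation p, 0.0286, gets 0.171 after adjustment over the 6 ratios. Without both libraries numbered 4 the smallest p is 0.1. The lack of a pass was therefore close to fixed by the number of libraries and says little about the ratios. The planned count tests on all 8 libraries were not run. Combinations with far-below junctions other than the block, and the 6-library fits, were chosen after seeing the data.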

Other observations

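Of 9 mitochondrial proteases none was called, with a median log2 fold change of 0.00 and sums of 856 to 1057 RPM in Cop1_KO and 935 to 1031 RPM in Cop1_WT. Lonp1, the matrix protease with the highest level per junction, averaged 319 ± 39.8 RPM in Cop1_KO and 294 ± 22.1 RPM in Cop1_WT (SD, n = 4 each). The 4 tested members of the wider HSP70 and HSP110 family gave no call over all junctions. Hspa12b was called lower once the replicate number was a block, and also once both libraries numbered 4 were left out. Hspa13, the highest of them, averaged 32.3 ± 4.74 RPM in Cop1_KO and 29.6 ± 6.18 RPM in Cop1_WT. Of 5 nascent chain factors, Dnajc2 alone was lower over all junctions (12.1% of all genes). Naca, which shields new chains at the ribosome, averaged 1021 ± 58.5 RPM in Cop1_KO and 1179 ± 58.1 RPM in Cop1_WT and was not called (limma adjusted p = 0.0663). Without the far-below junctions Naca was called (limma adjusted p = 0.0428), which made 2 of 5 lower (16.9% of all genes). Immediate early and handling stress genes were higher for 3 of 13 and lower for none, with a median of 0.45, while 8.49% of all genes were called higher. With the replicate block 5 of 13 were higher (12.3% of all genes) and Nr4a1 lower. Without both libraries numbered 4, 4 of 12 were higher (11% of all genes) and Dusp1 and Nr4a1 lower. Klf6, a zinc finger factor, averaged 231 ± 34.8 RPM in Cop1_KO and 68.8 ± 18.3 RPM in Cop1_WT (log2 fold change 1.77), Atf3 averaged 18.4 ± 8.68 RPM in Cop1_KO and 3.07 ± 1.13 RPM in Cop1_WT, and Klf2 averaged 71.1 ± 24.7 RPM in Cop1_KO and 15.7 ± 8.20 RPM in Cop1_WT.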
